A study of Mus musculus with 6 samples.

Results

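Amino acid transporters of the solute carrier (SLC) families 1, 3, 6, 7, 36, 38 and 43 were examined in mouse fibroblasts after acute knockdown of YME1L. The members were all loci of the count table with a gene name of these 7 families, taken by name and not by any measured value, without pseudogenes and without *Slc7a11*. This gave 65 of 51499 loci, of which none joined the names of several genes. No count was recorded on 12 of them, 16 held counts but too few to be tested, and 37 of the 14499 tested loci were members. The names also brought in loci that encode no amino acid transporter: *Slc7a6os* lies beside *Slc7a6* and encodes an unrelated protein, *Slc43a3* encodes a nucleobase transporter, and SLC6 holds carriers of monoamines, creatine and taurine. The antisense loci *Slc36a1os*, *Slc36a3os* and *Slc6a19os* had no count in any library.

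WT mouse embryonic fibroblasts (MEFs) were transfected with a scrambled control siRNA (Scr) or with an siRNA against Yme1l, and RNA was collected 72 h later from 3 independent cultures per group, which shared genotype, medium and transfection procedure. YME1L is a protease of the mitochondrial inner membrane, and the comparison asked which transcripts change when it is lost acutely. According to the methods, WT lines came from primary cells of animals with a loxP-flanked Yme1l gene by SV40 large T antigen and expansion of single clones, whereas the labels name 3T3 immortalization, and whether the 3 cultures of a group came from 1 clone is not given in the sources used here. The cells grew to confluency for 72 h in a medium with glutamine in dipeptide form, pyruvate, non-essential amino acids and serum that was not renewed. Poly(A) RNA was sequenced from stranded libraries. The replicates are cultures, and whether they were grown in a single experiment is not given either. The p-values set the difference between the groups against the spread between these cultures.

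Cells take up and exchange amino acids through carriers with overlapping substrates. SLC1 and SLC38 carriers couple uptake to sodium, and the cationic amino acid transporters of SLC7 (CAT proteins) bring in arginine and lysine. Most other SLC7 proteins are light chains that need a heavy chain of SLC3 to reach the membrane. These light chains mostly exchange one amino acid for another. Some SLC36 and SLC38 proteins act at the lysosome, where amino acids leave the organelle and are sensed by mTORC1, the kinase complex that couples nutrients to growth. Several of these genes are known targets of the transcription factor ATF4, which is translated when amino acids are short or mitochondria are stressed.

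The libraries held between 37260605 and 45205207 counts, and levels are given as CPM, the usual count relative to the library size, after scaling with the TMM method of edgeR. A level of 3 counts corresponded to between 0.0664 and 0.0805 CPM of the unscaled library. The groups were compared with the edgeR quasi-likelihood test, with p-values adjusted over all loci tested by the Benjamini-Hochberg method, and a locus is called higher or lower at an adjusted p under 0.05. Errors of levels are SD with n = 3 cultures. A single gene set against 3 and 3 cultures cannot reach a p below 0.1 in an exact two-sided permutation test. The targeted gene, *Yme1l1*, stood at 170.5, 171 and 171 CPM in the Scr cultures and 31.6, 23.4 and 45.0 CPM in the Yme1l siRNA cultures. Its log2 fold change was -2.36 ± 0.20 (SE), and the remaining transcript was highest in Yme1l siRNA replicate 3.

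Of the 37 members tested, 15 were higher in the Yme1l siRNA cultures (40.5%) and 4 were lower (10.8%). Among all loci tested, 28.4% were higher and 29.6% were lower, 58% in either direction. The share of members called in either direction, 51.4%, was thus near that of all loci, and the split between the directions was more to the higher side, without a test of that difference. The median log2 fold change of the members was 0.27, with a range from -1.42 to 2.46, beside a median of 0.01 for all loci tested. At least 2-fold changes were called higher for 6 members (16.2%) and lower for 1 (2.7%), beside 8.18% and 7.28% of all loci. The 3 Scr and the 3 Yme1l siRNA values did not overlap for 21 members (56.8%), beside 65.4% of all loci. Without *Slc7a6os*, 14 of 36 members were higher and 4 lower. The filter on low counts admitted *Slc6a4* and *Slc1a2* only through their counts in the Yme1l siRNA cultures. Of the 34 members over the filter in all 6 libraries, 13 were higher and 4 lower, with a median of 0.17. At least 2-fold changes were called higher for 4 of these 34 (11.8%) and lower for 1 (2.94%). In bulk RNA, fewer cells of a type and less RNA per cell cannot be told apart.

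**Figure D1:**
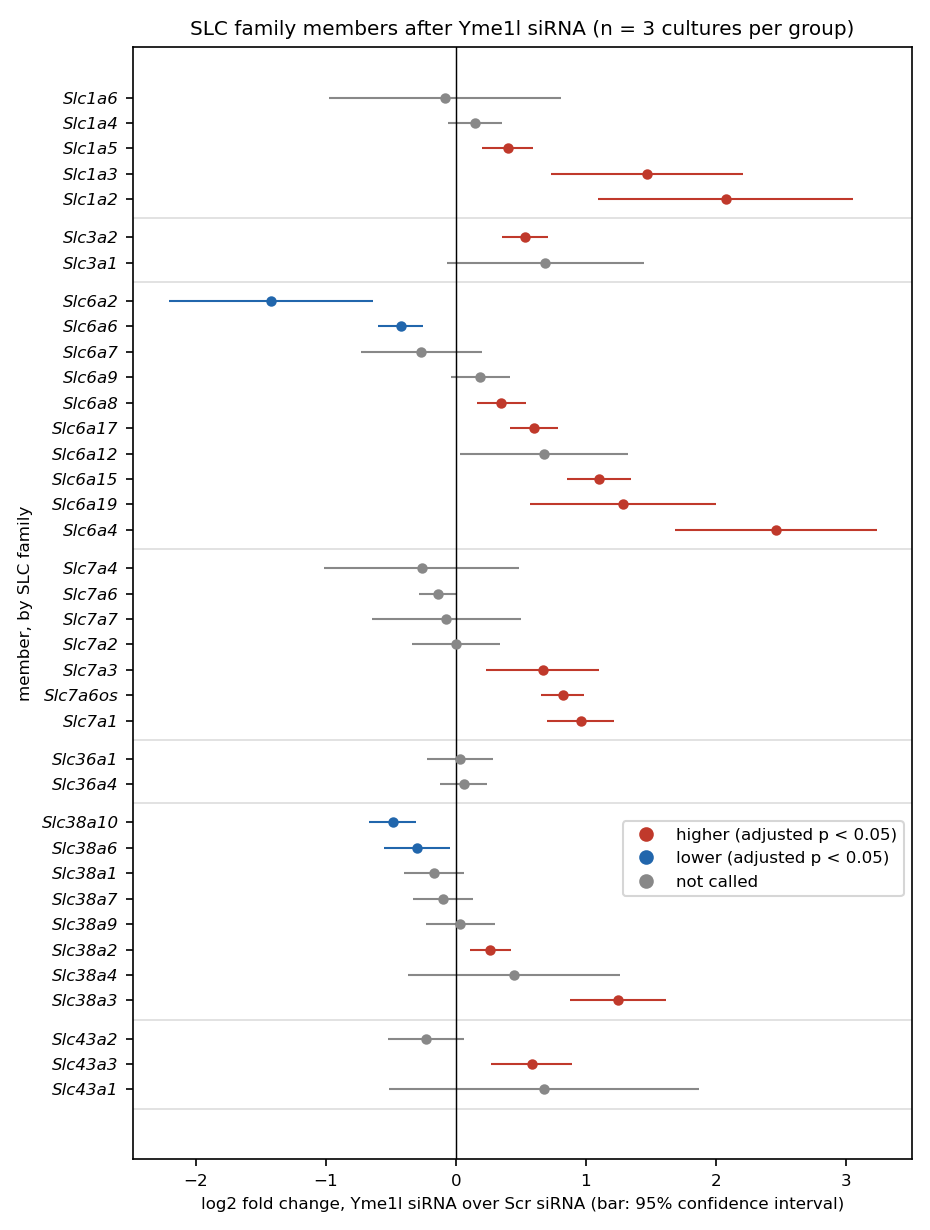
Log2 fold change (x axis, Yme1l siRNA over Scr siRNA) of the 37 members tested, grouped by SLC family on the y axis. Points are edgeR estimates from 3 cultures per group, bars are their 95% confidence intervals, and colours mark the 15 members called higher, the 4 called lower and those not called. All called members of SLC1, SLC3, SLC7 and SLC43 lie to the right of 0, and the 4 lower members belong to SLC6 and SLC38.

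Of the 3 cationic amino acid transporter genes, 2 were higher after the knockdown, beside 28.4% of all loci. *Slc7a1* (chr5:148327410-148399904, GRCm38, minus strand) encodes the widespread arginine and lysine importer CAT-1. Its level was 115, 106 and 133 CPM in the Scr cultures and 261, 217 and 211 CPM in the Yme1l siRNA cultures. All 3 knockdown cultures stood above all 3 controls, and the lowest of them was well above the highest control. The log2 fold change was 0.96 ± 0.11 (SE), with an adjusted p of 0.000166 (edgeR) and a 95% confidence interval of 0.71 to 1.22. *Slc7a3* (chrX:101079210-101086020, minus strand), which encodes the related CAT-3, was far less abundant, with 4.50, 3.88 and 4.83 CPM in the Scr cultures and 7.87, 7.96 and 5.20 CPM in the Yme1l siRNA cultures. The groups did not overlap, although Yme1l siRNA replicate 3 lay close to the controls, and the log2 fold change was 0.67 ± 0.19 (SE) with an adjusted p of 0.0154 (edgeR). The call for *Slc7a3* was lost without Scr replicate 2 (adjusted p = 0.0612, edgeR) and without Yme1l siRNA replicate 1 (adjusted p = 0.0610, edgeR).

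*Slc7a2* (chr8:40862396-40922308, plus strand), which encodes CAT-2, was not called. It stood at 34.3, 33.2 and 24.5 CPM in the Scr cultures and 31.9, 34.4 and 25.7 CPM in the Yme1l siRNA cultures, with overlapping groups and the lowest value of each group in replicate 3. Its log2 fold change was 0.00 ± 0.15 (SE), with a 95% confidence interval of -0.34 to 0.34 (adjusted p = 0.995, edgeR). The level of *Slc7a1* relative to *Slc7a2*, each divided by its exon length, was 3.16 ± 0.98 in the Scr cultures and 6.00 ± 0.85 in the Yme1l siRNA cultures, and the 3 lower values were those of the controls. Of the orphan CAT-like genes, *Slc7a4* had a log2 fold change of -0.26 ± 0.33 (SE) (adjusted p = 0.518, edgeR). *Slc7a14* held 2, 1 and 1 counts after Scr siRNA and 7, 4 and 9 after Yme1l siRNA and was not tested.

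The main heavy chain of the heteromeric transporters, the most abundant member per length, was higher after the knockdown, and neither of the 2 light chains tested among the members was called. The light chain gene *Slc7a11*, which is no member, had a log2 fold change of 1.77 and was called higher. Of the 9 light chain genes listed besides it, 1 had no locus in the count table and could not be assessed. The 2 light chains tested are thus not all partners that these cells may express. *Slc3a2* (chr19:8706882-8723369, minus strand) encodes the CD98 heavy chain, which carries several SLC7 light chains to the plasma membrane. It stood at 217, 209 and 242 CPM in the Scr cultures and 334, 323 and 310.3 CPM in the Yme1l siRNA cultures. The lowest knockdown culture exceeded the highest control, and the log2 fold change was 0.53 ± 0.08 (SE), with an adjusted p of 0.000491 (edgeR) and a 95% confidence interval of 0.36 to 0.71. The other heavy chain, *Slc3a1*, which pairs with the cystine and cationic amino acid exchanger of kidney and gut, remained near 1 CPM or below it on average in both groups and had a log2 fold change of 0.69 ± 0.33 (SE) (adjusted p = 0.106, edgeR). *Slc3a1* shares 601 exon bases with *Prepl* on the opposite strand, and without knowledge of how the counting used strand the reads of such pairs cannot be told apart. The same holds for *Slc7a2* (635 bases, *Gm26584*), *Slc7a4* (554 bases, *P2rx6*), *Slc38a9* (182 bases, *Gm47827*) and *Slc43a2* (922 bases, *Gm45606*).

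*Slc7a6* (chr8:106168857-106198706, plus strand) encodes a light chain that exchanges cationic for neutral amino acids. Its level was 74.2, 73.3 and 76.0 CPM in the Scr cultures and 70.5, 68.0 and 65.1 CPM in the Yme1l siRNA cultures. The 3 knockdown cultures stood below the 3 controls by a small margin, and the log2 fold change of -0.14 ± 0.06 (SE) was not called (adjusted p = 0.0962, edgeR), with a 95% confidence interval of -0.28 to 0.01. The ratio of *Slc3a2* to *Slc7a6*, each per kb of exon, was 3.78, 3.70 and 4.12 in the Scr cultures and 6.14, 6.15 and 6.17 in the Yme1l siRNA cultures. These groups of ratios could not overlap, since every knockdown culture lay above every control for *Slc3a2* and below it for *Slc7a6*. Their separation is thus no further result. The ratios of the knockdown cultures differed little from each other. *Slc7a7*, whose light chain has a similar substrate range and is best known from kidney and macrophages, stood at 1.94, 2.13 and 2.46 CPM in the Scr cultures and 2.10, 2.69 and 1.42 CPM in the Yme1l siRNA cultures. Its groups overlapped, with a log2 fold change of -0.07 ± 0.25 (SE) (adjusted p = 0.819, edgeR), and its transcripts share 232 exon bases with *Oxa1l* on the opposite strand.

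The other light chains among the members were scarcely detected. *Slc7a8*, which encodes a carrier of large neutral amino acids, held 6, 5 and 1 counts after Scr siRNA and 1, 2 and 0 after Yme1l siRNA, too few for a test. *Slc7a9* and *Slc7a15* had 1 count in a single library each, and *Slc7a10*, *Slc7a12* and *Slc7a13* had none. *Slc7a6os* (chr8:106200717-106210935, minus strand), which encodes a protein linked to nuclear import of RNA polymerase II and not a transporter, was higher. It stood at 27.2, 30.1 and 27.4 CPM in the Scr cultures and 50.2, 51.6 and 47.9 CPM in the Yme1l siRNA cultures. The groups were far apart relative to their spread, and the log2 fold change was 0.82 ± 0.07 (SE) (adjusted p = 3.94e-05, edgeR).

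**Figure D2:**
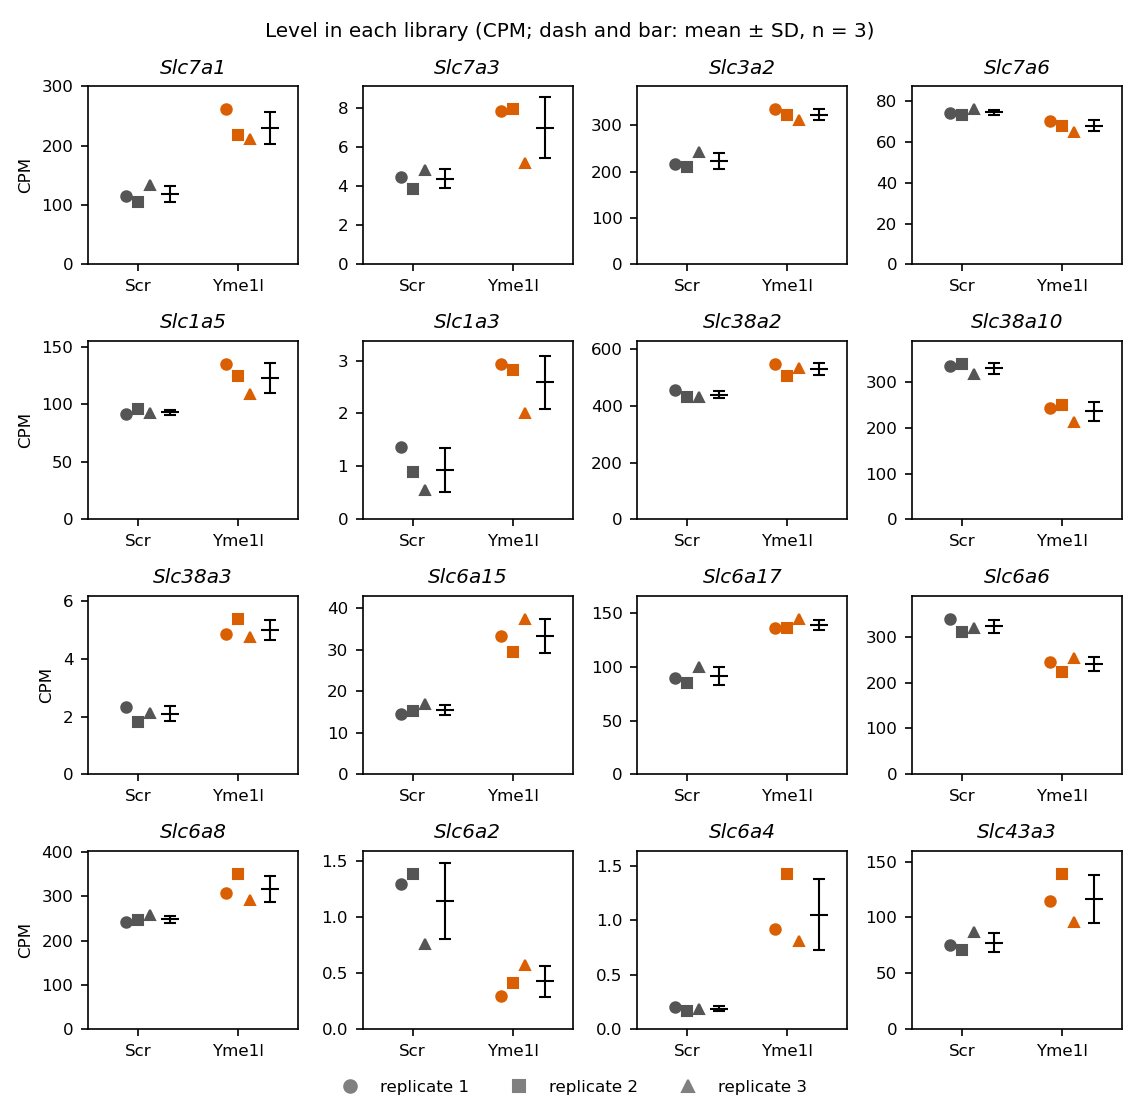
Level of 16 members in each culture (y axis, CPM, from 0), with Scr and Yme1l siRNA on the x axis, the symbol giving the replicate number and the dash and bar the mean ± SD of 3 cultures. *Slc7a1* lies between 106 and 133 CPM in the Scr cultures and between 211 and 261 CPM in the Yme1l siRNA cultures, and *Slc38a10*, *Slc6a6*, *Slc6a2* and *Slc7a6* are the panels in which the knockdown cultures lie lower.

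SLC1 holds neutral amino acid exchangers and glutamate transporters. *Slc1a5* (chr7:16781340-16798274, plus strand) encodes ASCT2, an exchanger best known for glutamine uptake. Its level was 91.2, 95.5 and 92.5 CPM in the Scr cultures and 135, 124 and 109 CPM in the Yme1l siRNA cultures. The controls lay within a narrow range and every knockdown culture above it, with a log2 fold change of 0.40 ± 0.09 (SE) and an adjusted p of 0.00430 (edgeR). *Slc1a4* (chr11:20302180-20332713, minus strand) encodes ASCT1, an exchanger of serine, alanine and cysteine. It stood at 70.9, 69.1 and 77.9 CPM in the Scr cultures and 87.3, 71.5 and 82.5 CPM in the Yme1l siRNA cultures, where Yme1l siRNA replicate 2 lay among the controls. The log2 fold change of 0.15 ± 0.09 (SE) was not called (adjusted p = 0.191, edgeR), with a 95% confidence interval of -0.06 to 0.35. Without Yme1l siRNA replicate 2 it was 0.23 and was called (adjusted p = 0.0375, edgeR).

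The glutamate transporters of SLC1 clear glutamate from the extracellular space in the brain. Of these, 3 were tested and 2 were higher, beside 28.4% of all loci. *Slc1a3* (chr15:8634124-8710764, minus strand), encoding the glial transporter GLAST, stood at 1.36, 0.887 and 0.545 CPM in the Scr cultures and 2.93, 2.83 and 2.02 CPM in the Yme1l siRNA cultures. The groups did not overlap, the control values spread widely, and the log2 fold change was 1.47 ± 0.32 (SE) (adjusted p = 0.00462, edgeR). *Slc1a2* (chr2:102658659-102790784, plus strand), encoding the glial transporter GLT-1, held 4, 7 and 9 counts after Scr siRNA and 36, 38 and 18 after Yme1l siRNA. These few counts, which passed the filter only in the Yme1l siRNA cultures, gave a log2 fold change of 2.08 ± 0.43 (SE) with a wide 95% confidence interval of 1.10 to 3.06 (adjusted p = 0.00332, edgeR). *Slc1a2* shares 189 exon bases with the antisense locus *Gm13872*. *Slc1a6*, which encodes a transporter of cerebellar neurons, stood at 12.6, 10.2 and 4.10 CPM in the Scr cultures and 10.9, 9.09 and 5.34 CPM in the Yme1l siRNA cultures. Both groups had their lowest value in replicate 3 and overlapped fully, with a log2 fold change of -0.08 ± 0.39 (SE) (adjusted p = 0.869, edgeR). *Slc1a7* had 11 counts in Yme1l siRNA replicate 1 and at most 2 in any other library, and *Slc1a1* had none in any.

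Of 8 SLC38 members tested, 2 were higher and 2 lower, beside 28.4% and 29.6% of all loci. Their median log2 fold change was -0.03. *Slc38a2* (chr15:96687392-96699730, minus strand) encodes SNAT2, a sodium-coupled importer of small neutral amino acids that adapts to amino acid supply. It stood at 455, 433 and 432 CPM in the Scr cultures and 547, 506 and 534 CPM in the Yme1l siRNA cultures. Each knockdown culture was above each control, by a margin smaller than for *Slc7a1*, and the log2 fold change was 0.27 ± 0.07 (SE) (adjusted p = 0.00982, edgeR). That call was lost without Scr replicate 2 (adjusted p = 0.0511, edgeR) and without Yme1l siRNA replicate 1 (adjusted p = 0.0508, edgeR). *Slc38a1* (chr15:96571418-96642913, minus strand), encoding the related glutamine importer SNAT1, stood at 318, 328 and 409 CPM in the Scr cultures and 321, 297 and 322 CPM in the Yme1l siRNA cultures. The groups overlapped, the Scr replicate 3 value stood apart from the other controls, and the log2 fold change was -0.17 ± 0.10 (SE) (adjusted p = 0.191, edgeR), with a 95% confidence interval of -0.40 to 0.07. Without Scr replicate 3 it was -0.05. Per kb of exon, the ratio of *Slc38a2* to *Slc38a1* was 2.79, 2.57 and 2.06 in the Scr cultures and 3.32, 3.32 and 3.24 in the Yme1l siRNA cultures.

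*Slc38a3* (chr9:107650634-107669530, minus strand), which encodes the glutamine transporter SNAT3 of liver, kidney and astrocytes, was low in both groups, with 2.33, 1.83 and 2.13 CPM in the Scr cultures and 4.87, 5.38 and 4.75 CPM in the Yme1l siRNA cultures. The groups were clearly separated and the log2 fold change was 1.25 ± 0.16 (SE) (adjusted p = 0.000270, edgeR). *Slc38a10* (chr11:120103960-120151346, minus strand), a less studied member of the family, was among the most abundant members and went the other way, from between 317 and 339 CPM in the Scr cultures to between 213 and 249.8 CPM in the Yme1l siRNA cultures. All knockdown cultures lay below all controls and the log2 fold change was -0.49 ± 0.08 (SE) (adjusted p = 0.00100, edgeR). *Slc38a10* shares 367 exon bases with *Gm11769* on the opposite strand. The lower call of *Slc38a6* was weak, with a log2 fold change of -0.30 ± 0.11 (SE) (adjusted p = 0.0445, edgeR), and was lost in 10 of 15 alternatives. Its transcripts also match many other genes, among them *Noct* with 98.5% identity over 3240 bases, so that its counts are uncertain. *Slc38a4*, which encodes a carrier best known from liver and placenta, stayed under 1 CPM with a log2 fold change of 0.45 ± 0.36 (SE) (adjusted p = 0.308, edgeR). *Slc38a8* and *Slc38a11* had 2 counts in a single library each, and *Slc38a5* had none.

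None of the 4 members listed as lysosomal was called, beside 58% of all loci called in either direction. Where their proteins lie was not measured, and the place of *Slc36a4* at the lysosome is uncertain. *Slc38a9* (chr13:112660751-112738749, plus strand) encodes the arginine sensor that signals to mTORC1. Its level was 13.2, 13.7 and 16.5 CPM in the Scr cultures and 14.1, 16.3 and 14.2 CPM in the Yme1l siRNA cultures, with overlapping groups and a log2 fold change of 0.04 ± 0.12 (SE) (adjusted p = 0.802, edgeR). Its 95% confidence interval was -0.23 to 0.30. *Slc36a1* (chr11:55204350-55236330, plus strand), encoding the proton-coupled exporter of small amino acids PAT1, stood at 51.7, 50.9 and 66.9 CPM in the Scr cultures and 56.5, 61.9 and 55.0 CPM in the Yme1l siRNA cultures. The Scr replicate 3 value was the highest of all 6, and the log2 fold change was 0.03 ± 0.11 (SE) (adjusted p = 0.815, edgeR) with a 95% confidence interval of -0.22 to 0.29. *Slc38a7*, which exports glutamine and asparagine from the lysosome, had a log2 fold change of -0.10 ± 0.10 (SE), and the SLC36 gene *Slc36a4* had a value of 0.06 ± 0.08 (SE) (adjusted p = 0.435 and 0.525, edgeR). The median over these 4 genes was 0.03. Of the other SLC36 carrier genes, *Slc36a2* had 1 count in each of 2 libraries and *Slc36a3* had none.

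Among the SLC43 genes, *Slc43a2* (chr11:75531694-75577575, plus strand) encodes LAT4, a facilitative carrier of branched-chain amino acids, phenylalanine and methionine. It stood at 12.9, 12.1 and 13.1 CPM in the Scr cultures and 11.3, 12.2 and 8.92 CPM in the Yme1l siRNA cultures. The groups overlapped through Yme1l siRNA replicate 2, and the log2 fold change of -0.23 ± 0.13 (SE) was not called (adjusted p = 0.156, edgeR), with a 95% confidence interval of -0.52 to 0.06. *Slc43a1*, which encodes the similar LAT3, stayed under 1 CPM with a log2 fold change of 0.68 ± 0.52 (SE) (adjusted p = 0.293, edgeR). The nucleobase transporter gene *Slc43a3* (chr2:84936579-84958509, plus strand) stood at 74.9, 71.0 and 86.7 CPM in the Scr cultures and 114, 139 and 95.6 CPM in the Yme1l siRNA cultures. Every knockdown culture was above every control, and the log2 fold change was 0.58 ± 0.14 (SE) (adjusted p = 0.00618, edgeR).

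SLC6 held the most members, 22, of which 10 were tested, 5 were higher and 2 lower, beside 28.4% and 29.6% of all loci. The 5 include *Slc6a4*, which passed the filter on low counts only through the Yme1l siRNA cultures, where it was high. Of its amino acid carriers, *Slc6a15* (chr10:103367783-103419377, plus strand) encodes a sodium-coupled importer of branched-chain amino acids and proline known from neurons. It stood at 14.6, 15.1 and 16.9 CPM in the Scr cultures and 33.3, 29.4 and 37.4 CPM in the Yme1l siRNA cultures. The knockdown cultures were all well above the controls, with a log2 fold change of 1.10 ± 0.11 (SE) (adjusted p = 6.56e-05, edgeR). *Slc6a17* (chr3:107467543-107518018, minus strand), encoding a synaptic vesicle carrier of neutral amino acids, stood at 89.4, 84.6 and 100.3 CPM in the Scr cultures and 137, 136 and 145 CPM in the Yme1l siRNA cultures. Its groups did not overlap either, with a log2 fold change of 0.60 ± 0.08 (SE) (adjusted p = 0.000334, edgeR). *Slc6a19* (chr13:73679745-73704865, minus strand), the main neutral amino acid importer gene of gut and kidney, held 12, 14 and 13 counts after Scr siRNA and 37, 42 and 24 after Yme1l siRNA. The groups did not overlap, and the log2 fold change at this low level was 1.29 ± 0.31 (SE) (adjusted p = 0.00740, edgeR).

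The SLC6 carriers of transmitters and osmolytes moved in both directions. *Slc6a4* (chr11:76998603-77032340, plus strand), the serotonin transporter gene, held 9, 6 and 8 counts after Scr siRNA and 41, 62 and 34 after Yme1l siRNA. Its log2 fold change was 2.46 ± 0.34 (SE) (adjusted p = 0.000399, edgeR), at a level of at most 1.43 CPM. Since *Slc6a4* passed the filter only through the Yme1l siRNA cultures, where it was high, a large estimate was built into its inclusion. *Slc6a2* (chr8:92960079-93001667, plus strand), the noradrenaline transporter gene, stood at 1.29, 1.39 and 0.758 CPM in the Scr cultures and 0.293, 0.414 and 0.570 CPM in the Yme1l siRNA cultures. All knockdown values were lower than all control values, with a log2 fold change of -1.42 ± 0.34 (SE) (adjusted p = 0.00728, edgeR). Of the abundant carriers, the taurine transporter gene *Slc6a6* lay between 311 and 339 CPM in the Scr cultures and between 223 and 254 CPM in the Yme1l siRNA cultures, with a log2 fold change of -0.42 ± 0.08 (SE) (adjusted p = 0.00152, edgeR). The creatine transporter gene *Slc6a8* lay between 241 and 257 CPM in the Scr cultures and between 292 and 350.1 CPM in the Yme1l siRNA cultures, with a log2 fold change of 0.35 ± 0.08 (SE) (adjusted p = 0.00664, edgeR). Neither pair of ranges overlapped. *Slc6a6* shares 117 exon bases with *Gm44981* on the opposite strand. The glycine transporter gene *Slc6a9*, the betaine and GABA transporter gene *Slc6a12* and the proline transporter gene *Slc6a7* were not called, with log2 fold changes of 0.19 ± 0.10 (SE), 0.68 ± 0.28 (SE) and -0.27 ± 0.20 (SE) (adjusted p = 0.135, 0.0670 and 0.291, edgeR). *Slc6a9* shares 1429 exon bases with *Ccdc24* on the opposite strand. The other 12 SLC6 loci, among them the dopamine transporter gene *Slc6a3*, had at most 3 counts in a library.

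Of 8 listed genes of these families known from other systems as ATF4 targets, 1 had no locus in the count table and 7 were tested. These were *Slc7a1*, *Slc7a3*, *Slc3a2*, *Slc1a4*, *Slc1a5*, *Slc38a2* and *Slc6a9*, of which 5 were higher, none lower, and *Slc1a4* and *Slc6a9* not called, with a median log2 fold change of 0.40, beside 28.4% higher and 29.6% lower among all loci. Each of their log2 fold changes was below 1. The list was put together with results of these data known.

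Promoter sequence was taken from RefSeq (GRCm38.p6), from 250 bases before to 50 bases after each start, for the 48 of 65 members that had an entry, 25 of them tested. The windows were searched on both strands for TGATGNAA, the core of the C/EBP-ATF response element that ATF4 binds, for CACGTG, the E-box of MYC and of lysosomal gene regulators, and for the core of the interferon-stimulated response element. TGATGNAA occurred in 4.51% of 27025 genes with a window and in 3 of 48 members, CACGTG in 8.09% of genes and in 9 of 48 members (18.8%), and the interferon-stimulated core in 3.99% of genes and in 0 of 48 members. None of the 9 members called higher and of the 2 called lower with a window held any of the 3 motifs. With shares this low among all genes, an absence in so few members says nothing about them. Sequence outside the windows, such as introns, was not searched. The following windows are shown because they belong to members without a called change, an amino acid exchanger, a light chain and carriers at the lysosome, with the motif in capitals. They read 5′ to 3′ on the strand of the gene, and the motif of *Slc1a4* lies on the other strand. *Slc1a4* is at chr11:20332700-20332727 (minus strand), *Slc7a7* at chr14:54417928-54417955 (minus strand), the *Slc36a1* windows at chr11:55204299-55204324 and chr11:55204327-55204352 (plus strand), and *Slc38a7* at chr8:95853510-95853535 (minus strand).
*Slc1a4*, TGATGNAA: gcctcctgcgTTGCATCAtctccagcct
*Slc7a7*, TGATGNAA: acctagaagcTGATGCAAcagcttcccc
*Slc36a1*, first CACGTG: aatggagcggCACGTGacctgggcta
*Slc36a1*, second CACGTG: gagccagcatCACGTGacagggcccg
*Slc38a7*, CACGTG: gattcaggctCACGTGttacttgagt
In *Slc36a1* the motifs began at positions -31 and -3 from the start, and in *Slc38a7* at -34. *Slc7a7* held a further TGATGNAA at chr14:54418068-54418095, which is not printed. CACGTG also began at -32 in *Slc1a6* and at -64 in *Slc43a1*, both tested and not called, and their windows are not printed either. The remaining members with CACGTG were not tested, so the printed windows do not show that the motif marks carriers at the lysosome. A match describes letters in the window, and no binding was measured. The window of *Slc1a4* was the only one with TGATGNAA among the 5 ATF4-linked members that had an entry.

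Levels were compared between genes as CPM per kb of exon, with the exons of all annotated transcripts merged (GENCODE M21, GRCm38). Over 36 members, without *Slc7a6os*, the mean level in the Scr cultures was highest for *Slc3a2* (63.1 ± 4.76), followed by *Slc38a10* (51.4), *Slc38a2* (49.8), *Slc6a8* (47.7), *Slc6a6* (38.2) and *Slc1a5* (22.3 CPM per kb). These first 5 held 60.6% of the summed level. *Slc3a2* stood apart from the next gene, whereas *Slc38a10*, *Slc38a2* and *Slc6a8* overlapped from one to the next, and of the 35 pairs of neighbours in the whole order 15 were separated in all 3 cultures. In the Yme1l siRNA cultures *Slc3a2* was again first, at 91.4 CPM per kb, *Slc6a8* moved from rank 4 to 2, *Slc38a10* from 2 to 4 and *Slc7a1* from 11 to 9. With the length of 1 principal transcript per gene, chosen after seeing the data, *Slc3a2* remained first, *Slc7a1* again moved from 11 to 9, and *Slc6a8* and *Slc38a10* kept ranks 3 and 4 in both groups.

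The summed level of the 36 members was 412, 401 and 425 CPM per kb in the Scr cultures and 489, 479 and 450.4 CPM per kb in the Yme1l siRNA cultures. These sums did not overlap. The SLC3 sum, almost all from *Slc3a2*, went from between 59.7 and 68.8 to between 88.2 and 95.3 CPM per kb, whereas the SLC38 sum was between 130.0 and 132 in the Scr cultures and between 121 and 128 CPM per kb in the Yme1l siRNA cultures. Such sums follow the few abundant members and are given without a test.

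**Figure D3:**
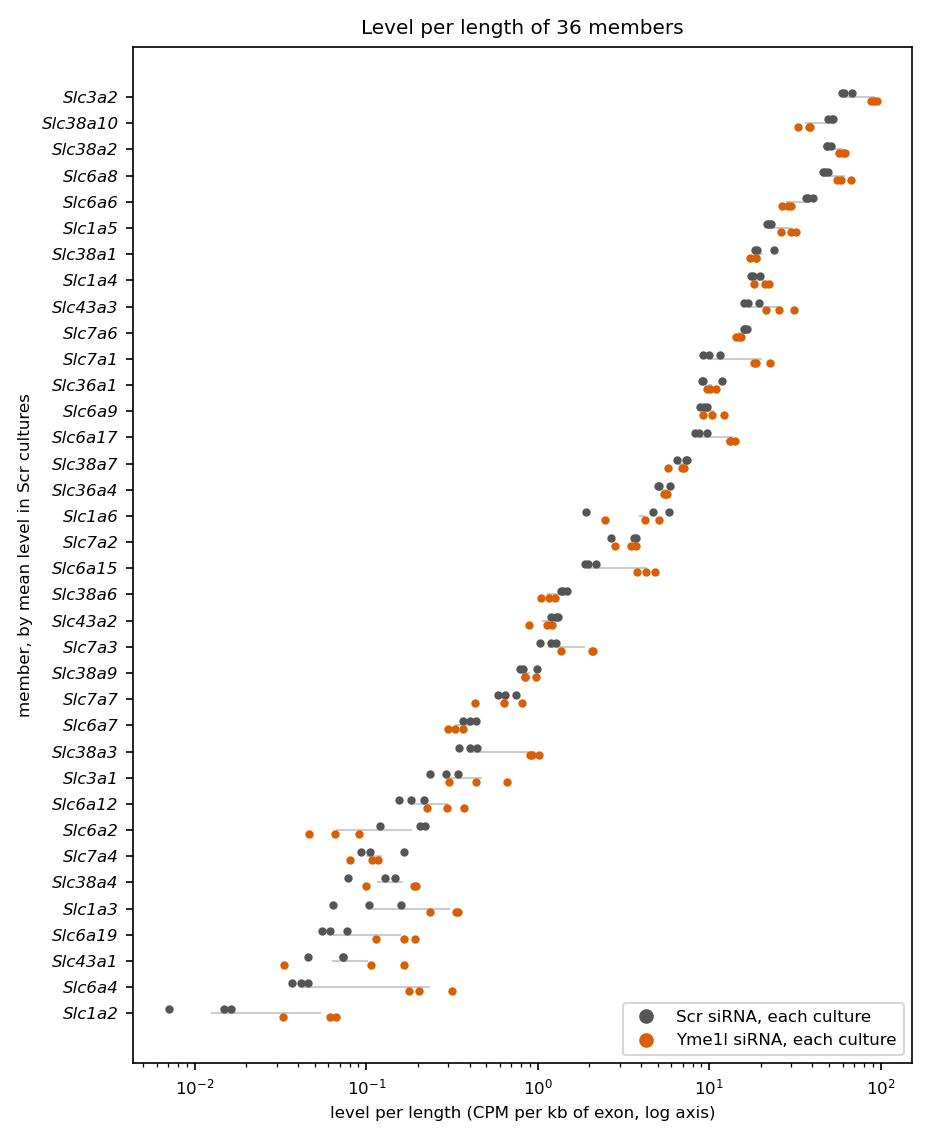
Level per length (x axis, CPM per kb of exon, log axis) of 36 members in each of the 3 Scr and 3 Yme1l siRNA cultures, with members on the y axis by their mean level in the Scr cultures and grey lines joining the group means. *Slc3a2* has the highest mean level in both groups, and *Slc38a10* and *Slc6a6* are abundant members whose Yme1l siRNA points lie to the left of the Scr points.

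The errors of the log2 fold changes were larger at low levels. Of 14 members with a mean under 5 CPM in the Scr cultures, 12 did not owe their place to the counts of 1 group, and of these 4 were higher and 1 was lower, with a median SE of 0.32 and log2 fold changes from -1.42 to 1.47. Of 13 members at 50 CPM or more, 7 were higher and 2 lower, with a median SE of 0.08 and no log2 fold change above 0.96 or below -0.49. The 10 members between these levels had 2 higher and 1 lower, with a median SE of 0.11 and log2 fold changes from -0.30 to 1.10. Among loci of all levels, 28.4% were higher and 29.6% lower. The other solute carrier loci, which include *Slc7a11*, gave 46 higher (27.9%) and 53 lower (32.1%) of 165 tested, with a median log2 fold change of -0.02. The difference between members and these loci was not tested.

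**Figure D4:**
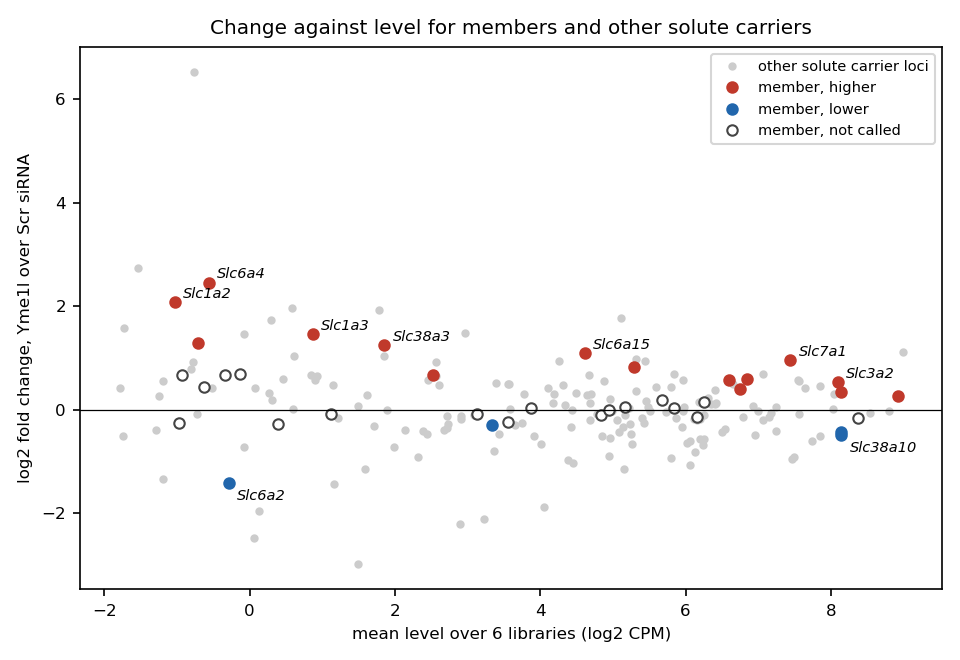
Log2 fold change (y axis, Yme1l siRNA over Scr siRNA) against mean level over 6 libraries (x axis, log2 CPM) for the 37 members and, in grey, the 165 other solute carrier loci tested. Members called higher are spread over the whole range of levels, and *Slc6a4* and *Slc1a2*, at the left, passed the filter on low counts only through the Yme1l siRNA cultures.

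Genes that work with these carriers were examined beside them. Of 33 genes of amino acid sensing by mTORC1, all tested, 4 were higher and 14 lower, with a median log2 fold change of -0.10, beside 28.4% higher and 29.6% lower among all loci. Those with the largest called changes were *Sesn3* (-1.58 ± 0.10) and *Sesn1* (-0.84 ± 0.07), which encode sestrins that restrain mTORC1, and *Lamtor2* (-0.71 ± 0.08), a subunit of the lysosomal Ragulator scaffold. The remaining sestrin gene, *Sesn2*, had a positive log2 fold change of 0.38 ± 0.15 and was not called (adjusted p = 0.0503, edgeR). Of 22 further amino acid and peptide transporter genes outside the 7 families, 15 were tested, 6 were higher and 3 lower, with a median of 0.32, and the share called in either direction was thus near the 58% of all loci. The largest called changes were those of the mitochondrial glutamate carrier gene *Slc25a22* (0.95 ± 0.10), of the lysosomal cationic amino acid exporter gene listed as *Pqlc2* (0.84 ± 0.16) and of *Slc17a5* (-0.79 ± 0.11), which encodes the lysosomal sialic acid exporter, all as log2 fold changes ± SE.

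Marker genes of cell types were examined as well. Of 9 fibroblast markers, 8 were tested and 7 were lower, beside 29.6% of all loci, with a median log2 fold change of -0.88. Their summed level fell from between 33760 and 39020 to between 18390 and 22820 CPM of the unscaled library. *Thy1* had at most 1 count in a library, and *Vim* was not called. Of 15 markers of other cell types, 6 were tested and 3 were higher, *Krt8*, *Kdr* and *Csf1r*, beside 28.4% of all loci. The filter on low counts admitted *Krt8* and *Kdr* through the Yme1l siRNA cultures, where they were high. *Krt8* held 1, 1 and 1 counts after Scr siRNA and 24, 31 and 23 after Yme1l siRNA, and *Kdr* 3, 9 and 7 against 43, 43 and 38. The sum of the 15 markers was 113.9 to 132.0 in the Scr cultures and 194.8 to 231.9 CPM in the Yme1l siRNA cultures, of which *Csf1r* made up most. *Adgre1*, *Myod1*, *Sox10* and *Hbb-bt* were at 0 in every library, and the leukocyte marker *Ptprc* had 3 counts in Yme1l siRNA replicate 1 and none elsewhere. The part of these markers in the changes of the transporters was not tested.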

How the data were processed

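WT MEFs transfected with Scr or Yme1l siRNA for 72 h were compared, 3 cultures per group, and every sample column was mapped. The authors aligned the reads to GRCm38 with HISAT2 2.0.4, assembled them with StringTie 1.3.3 and deposited raw counts per locus without normalization. The program that counted and its use of strand are not given in the sources used here, so reads of genes that overlap on opposite strands cannot be told apart. A second deposited table of the authors' own comparison, made with Cuffdiff 2.2.1 (group FPKM, fold changes, p-values), was not used.

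The deposited counts of all loci entered edgeR 4.0.16 (R 4.3.3) without covariates. TMM factors and filterByExpr (minimum 10 counts, 15 in total) were used, and quasi-likelihood p-values were adjusted by Benjamini-Hochberg over 14499 loci. The SE is the size of the log2 fold change divided by the square root of F, and the common biological coefficient of variation was 0.131. Libraries held between 37260605 and 45205207 counts, and no pair of replicates was as alike as repeated counting of one library (chi-square per degree of freedom from 10.4 to 76.5). Intervals for rare genes rest on few counts. The fit was also run on simulated counts, and the outcome is not reported here. Near-identical transcripts were searched with BLAST 2.17.0 (95% identity over 200 bases).

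Alternatives were DESeq2 1.42.0, limma-voom (limma 3.58.1), other scale factors, filters and a threshold of 0.01, removal of mtDNA loci with their nuclear copies, the replicate block and leaving out each library. The members, gene lists and tests were chosen with earlier results of these data known. Full statistics were planned for the 12 called members with the largest changes and for a list of main transporters whatever their change. From gene lists without members, the 3 largest called changes were named, and *Sesn2* was added beside the other sestrin genes. Other members are given by counts, ranges or log2 fold changes. The ranks of levels with 1 principal transcript were chosen after seeing the data.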

Additional observations from a re-analysis of the deposited data

How the results depend on the processing

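The number of members called higher was between 12 and 18 in all 15 alternatives, and that of members called lower between 2 and 4. With loci of a mean of at least 50 counts, which left 28 members, 2 members were lower and the median log2 fold change was 0.14. Leaving out each library in turn gave 13 to 18 members higher, 3 to 4 lower and a median of 0.23 to 0.28, while all loci gave 3451 to 4133 higher and 3616 to 4312 lower, and *Yme1l1* a log2 fold change of -2.64 to -2.15. Between the deviations of equally numbered cultures the correlations were 0.04, 0.12 and 0.19. Scr replicates 2 and 3 each correlated best with the Yme1l siRNA culture of the same number. Whether the numbers pair the cultures is not given in the sources used here, and the main fit left them out. With the replicate block, 15 members were higher and 4 lower, and 4227 and 4460 of all loci. Scr replicate 1 correlated best with Yme1l siRNA replicate 2 (0.09).

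Of the 19 called members, 16 stayed called in the same direction in every alternative that tested them, and *Slc38a2*, *Slc7a3* and *Slc38a6* did not. *Slc7a3* was also lost at the threshold of 0.01. No called member changed direction. Without Yme1l siRNA replicate 3, *Slc3a1* (log2 fold change 0.92), *Slc43a1* (1.09) and *Slc6a12* (0.84) were called, and without Yme1l siRNA replicate 2, *Slc1a4* (0.23) and *Slc6a9* (0.29) were called. In the other direction, *Slc43a1* was 0.15 without Yme1l siRNA replicate 2, and without Yme1l siRNA replicate 1 *Slc3a1* was 0.35, *Slc1a4* 0.09 and *Slc6a9* 0.08. The sign changed only for 6 members that were not called, and the cause was not tested. With limma-voom *Slc1a6* gave a log2 fold change of 0.018, and with all loci of at least 1 count *Slc7a2* gave -0.0098. Leaving out each library in turn moved *Slc1a6* between -0.44 and 0.24, *Slc36a1* between -0.043 and 0.17, *Slc38a9* between -0.032 and 0.14, *Slc7a2* between -0.14 and 0.11, *Slc7a4* between -0.42 and 0.023 and *Slc7a7* between -0.30 and 0.13. Depth limited the 16 members with counts that were not tested, of which 12 had at most 5 counts in all libraries together.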
